A study of Mus musculus with 24 samples.

Results

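The transcript followed here is that of Dusp1, read by probe ILMN_2622983, which was the only Dusp1 probe among the 45281 probes of a mouse bead array. The probe was chosen by its measured cuff and sham signals, with earlier results of these arrays known, so its cuff and sham levels are given as a description, without a test. GEO's platform annotation pairs the probe with Dusp1 (gene ID 19252), at chr17:26505591-26508472 on the minus strand of GRCm38.p6. The position of the probe within the transcript is not given in the sources used here.

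Total RNA came from the anterior cingulate cortex (ACC) of male C57BL/6J mice. The ACC is an area of medial frontal cortex tied to the unpleasantness of pain. The groups were cuff-operated mice 2 weeks after surgery, sham-operated mice at 2 weeks, cuff-operated mice 8 weeks after surgery and sham-operated mice at 8 weeks, with 6 arrays each, which the design text calls biological replicates. In the cuff model a short tube is closed around the sciatic nerve, which leaves a lasting neuropathic pain, and the series title concerns the depression that such pain brings on. The sources used here do not give the age of the mice or the side of the operation.

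Dusp1 encodes MKP-1, a nuclear dual-specificity phosphatase that takes the phosphate off both the threonine and the tyrosine of active p38, JNK and ERK kinases and so ends their signal. It is itself an immediate early gene: neuronal activity, growth factors, stress and glucocorticoids start its transcription within minutes, in part through the factor CREB, and the kinases it switches off help to switch it on. In rodent brain it has been studied both as a marker of recent neuronal activity and in models of stress and depression.

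The promoter windows of Dusp1 and of 3 genes whose levels followed it across mice (below) are shown because all 4 belong to this activity-driven class and have 1 window each in the table used. Each is the 250 bases before the gene's start, 5′ to 3′ along the gene, from RefSeq on GRCm38.p6. Capitals mark TGACG or its reverse complement CGTCA, the core of the site that CREB binds, and CACGTG, an E-box.
Dusp1, chr17:26508473-26508722, minus strand: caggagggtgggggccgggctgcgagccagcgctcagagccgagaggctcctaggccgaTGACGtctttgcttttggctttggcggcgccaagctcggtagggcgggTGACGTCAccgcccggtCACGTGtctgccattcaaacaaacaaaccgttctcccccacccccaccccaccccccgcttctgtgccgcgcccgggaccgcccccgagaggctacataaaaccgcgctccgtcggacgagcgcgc
Fos, chr12:85473640-85473889, plus strand: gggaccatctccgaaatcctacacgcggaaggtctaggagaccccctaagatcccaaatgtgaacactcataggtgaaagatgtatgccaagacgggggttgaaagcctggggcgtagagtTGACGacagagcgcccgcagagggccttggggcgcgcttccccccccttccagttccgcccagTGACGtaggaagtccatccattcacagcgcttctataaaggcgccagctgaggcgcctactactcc
Ccn1, chr3:145649986-145650235, minus strand: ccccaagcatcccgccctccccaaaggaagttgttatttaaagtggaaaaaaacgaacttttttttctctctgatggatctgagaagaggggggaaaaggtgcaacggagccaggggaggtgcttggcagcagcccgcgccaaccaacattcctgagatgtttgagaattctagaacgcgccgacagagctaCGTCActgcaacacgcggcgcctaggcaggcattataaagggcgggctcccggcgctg
Npas4, chr19:4989972-4990221, minus strand: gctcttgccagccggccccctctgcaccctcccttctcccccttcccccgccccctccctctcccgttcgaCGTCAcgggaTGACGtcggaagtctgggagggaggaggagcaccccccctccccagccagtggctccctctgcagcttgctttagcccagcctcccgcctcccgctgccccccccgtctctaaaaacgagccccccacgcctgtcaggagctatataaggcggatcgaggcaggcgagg

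The Dusp1 window held the full 8-base element TGACGTCA once, at -143 to -136 from the start, and a further TGACG at -191 to -187. It held CACGTG at -126 to -121. Searched on both strands, TGACGTCA was present in 1.55% of all 32851 windows of this length, TGACG (also part of the full element) in 17.8% and CACGTG in 6.02%. The Fos window held TGACG 2 times, the Ccn1 window 1 time and the Npas4 window 2 times. Egr2 and Csrnp1, which also followed Dusp1, have several windows each and are not printed. Of the 5 Egr2 windows, 3 held TGACG and 2 did not. A CArG box, the site of serum response factor (in 1.47% of all windows), was held by 4, and 1 held CACGTG. The 3 windows with TGACG overlap, and their TGACG sites and CArG box are the same ones, counted once per window. All 4 Csrnp1 windows held TGACG. None of the 4 windows printed held a CArG box. These are matches of letters in a window. No assay of the series measured binding there.

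Dusp1 was detected in every mouse, with a detection p-value of 0 on all 24 arrays, and it varied widely. Its pooled SD within groups was 0.41 on the log2 scale, and 96.3% of the 22456 tested probes had a lower one. Across the series, 20067 to 21715 probes per array were detected, the median raw signal lay between 72.0 and 100.9 units, and pairs of arrays correlated between 0.976 and 0.995 over the tested probes.

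At 2 weeks, the log2 signal of Dusp1 was lowest at 11.91, had a median of 12.43 and was highest at 12.84 in the 6 cuff arrays, against a lowest of 10.81, a median of 11.16 and a highest of 11.87 in the 6 sham arrays. The groups did not overlap, although the margin between the lowest cuff and the highest sham array was narrow. Over the tested probes, 25 had all 6 cuff arrays above all 6 sham arrays at 2 weeks (0.111%). The mean was 12.41 ± 0.34 in cuff mice and 11.29 ± 0.49 in sham mice (SD over 6 arrays each), which differ by 1.13 ± 0.22 (SE) on the log2 scale or 2.18-fold.

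At 8 weeks, the lowest, median and highest cuff arrays stood at 11.99, 12.44 and 12.58, against 10.64, 11.54 and 12.10 in sham. Here the groups overlapped: 5 of 6 cuff arrays lay above every sham array, and cuff replicate 2 lay below sham replicate 2. At this time 44 probes (0.196%) had every cuff array above every sham array, and Dusp1 was not among them. The mean was 12.38 ± 0.22 in cuff mice and 11.53 ± 0.52 in sham mice (SD over 6 arrays each), which differ by 0.86 ± 0.22 (SE) on the log2 scale or 1.81-fold. Averaged over both times the difference was 0.99 ± 0.15 (SE), 1.99-fold. In bulk tissue, more cells that express a gene and more RNA per cell cannot be told apart.

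**Figure D1:**
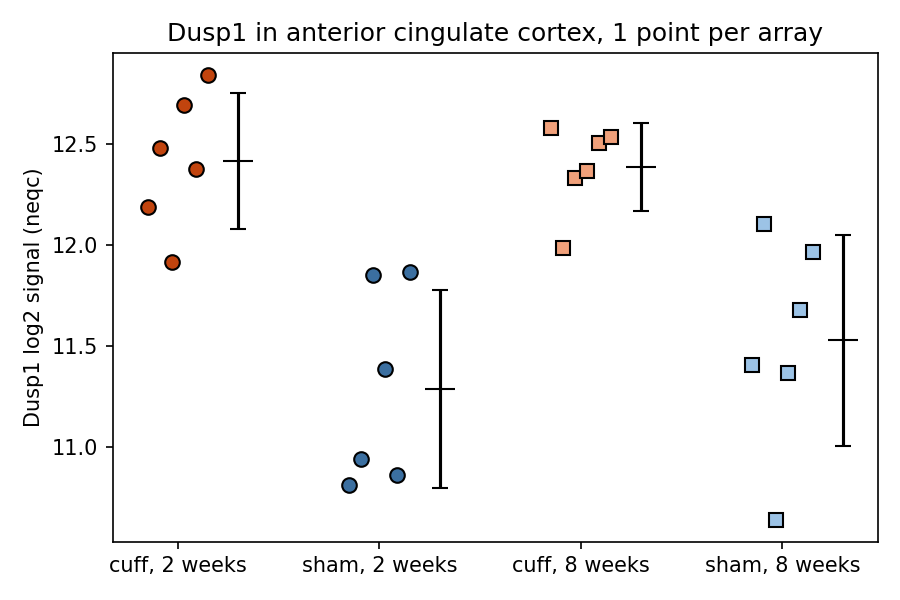
Log2 signal of the Dusp1 probe after background correction and quantile normalization, 1 point per array, with the mean and SD of the 6 arrays of each group beside them. All 2-week cuff arrays lie at 11.91 or above and all 2-week sham arrays at 11.87 or below, while at 8 weeks 1 sham array, at 12.10, stands above the lowest cuff array, at 11.99.

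Dusp1 was also higher in cuff than in sham before any correction made here, with a mean raw signal of 5531 units in cuff and 2788 in sham at 2 weeks, and of 5610 units in cuff and 3138 in sham at 8 weeks. Single arrays ran from 4097 to 6794 units in cuff and from 1295 to 5622 units in sham at 2 weeks, and from 4132 to 6595 units in cuff and from 1397 to 4944 units in sham at 8 weeks. The raw ranges overlapped at both times, and the sham array at 5622 units, 2-week replicate 6, also had the highest median raw signal of the series. In the authors' own normalized table, which holds quantile-normalized signal without background correction on a linear scale, Dusp1 averaged 5642 units in cuff and 2685 in sham at 2 weeks (2.10-fold), and 5456 in cuff and 3167 in sham at 8 weeks (1.72-fold).

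Each title carries a number that may be the mouse's, and neighbouring numbers were taken 2 by 2 within a time as possible batches. No label says that they share one. Within the 6 such pairs at 2 weeks, Dusp1 in the cuff mouse exceeded that in its sham neighbour by 0.06 to 1.54 (median 1.34, log2). In the 4 mixed pairs at 8 weeks it did so by 0.31 to 1.17 (median 0.75). These signs add no support: at 2 weeks every cuff array lay above every sham array, so any pairing gives the same sign. At 8 weeks the only sham array that stood above a cuff array had no cuff neighbour.

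Time after surgery, averaged over cuff and sham, was a comparison that did not enter the choice of the probe. Dusp1 did not pass the threshold between 8 and 2 weeks. Averaged over cuff and sham, the 8-week level minus the 2-week level was 0.11 ± 0.15 on the log2 scale (SE, limma adjusted p = 0.728, 95% interval -0.21 to 0.42). Among the tested probes, 960 were higher (4.28%) and 845 lower (3.76%) at 8 weeks in this comparison. The difference was -0.03 ± 0.22 in cuff (SE, limma, where 0.405% of probes passed) and 0.24 ± 0.22 in sham (SE, limma, where 0.0623% passed). Both are given for Dusp1 without a test, since each uses group levels by which the probe was chosen. The cuff difference at 8 weeks minus that at 2 weeks was -0.27 ± 0.31 (SE), also given without a test since it rests on the cuff and sham levels. Mouse numbers ran from 21 to 42 at 8 weeks and from 2 to 18 at 2 weeks, so time and anything that follows the number cannot be told apart.

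In order of mean normalized log2 level, the 2-week cuff, 8-week cuff, 8-week sham and 2-week sham groups followed each other, while by the median, and by the mean raw signal, the 8-week cuff group stood above the 2-week cuff group. The cuff groups differed from each other by less than their spread, as did the sham groups. The cuff mice were also more alike: the SD of Dusp1 within groups was 0.28 in cuff and 0.51 in sham, a ratio of 0.56. The median ratio over the tested probes was 0.91, and 9.29% of them had a lower ratio than Dusp1. The sham mice held both low levels, such as 10.64, and levels within the cuff range, such as 12.10.

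The other MAP kinase phosphatases remove the same phosphates with different kinase preferences and locations in the cell. Of 9 such genes, 8 had a tested probe (Dusp9 did not pass the detection filter) and 0 were called higher or lower in cuff than in sham over both times. Over all tested probes 22 were called higher (0.098%) and 0 lower (0%, with limma). The median log2 difference of the 8 was 0.01, against 0.00 over all tested probes, and 5 of the 8 lay above 0. The smallest p was that of Dusp6, the cytoplasmic phosphatase of ERK, at 0.29 ± 0.06 (SE, limma adjusted p = 0.106). Dusp5, a nuclear ERK phosphatase, was at 0.33 ± 0.09 (SE, limma adjusted p = 0.525).

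Dusp6 was also the phosphatase nearest to Dusp1 across arrays, with a Pearson r of 0.881 over all 24. Its lowest, median and highest log2 signals were 11.78, 11.99 and 12.15 in cuff and 11.55, 11.61 and 11.88 in sham at 2 weeks, so the sham arrays reached into the cuff range. At 8 weeks they were 11.87, 11.93 and 11.99 in cuff and 11.34, 11.76 and 11.89 in sham, again with overlap.

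For the others the differences in either direction were smaller. Dusp2, an inducible nuclear phosphatase, had a log2 difference of -0.19 ± 0.12 (SE), with its probe detected on 16 of 24 arrays. Dusp4, the nuclear MKP-2, was at 0.00 ± 0.11, and Dusp7, a cytoplasmic ERK phosphatase, at -0.08 ± 0.12. The phosphatases that prefer JNK and p38 were at 0.02 ± 0.08 for Dusp8, -0.05 ± 0.08 for Dusp10 and 0.06 ± 0.11 for Dusp16. Of 15 atypical dual-specificity phosphatases, which lack the kinase-binding part of this family, 14 were tested and 0 called (background 0.098% higher and 0% lower, at which a list this short would hold about 0 calls), with a median log2 difference of 0.01. Between 8 and 2 weeks, Dusp5 rose by 0.31 ± 0.09 (SE, limma adjusted p = 0.0408) and Dusp8 by 0.24 ± 0.08 (SE, limma adjusted p = 0.0477). Both calls were close to the threshold: Dusp5 kept its call under 14 and Dusp8 under 10 of 32 alternative settings, with adjusted p up to 0.0745 and 0.0873.

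The kinases that MKP-1 acts on are given by their genes. Of 12 MAP kinase genes, 9 were tested and 0 were called in either direction between cuff and sham (limma, background 0.098% higher and 0% lower). Mapk8, which encodes JNK1, had a log2 difference of 0.00 ± 0.06 and Mapk14, which encodes p38 alpha, of 0.03 ± 0.06 (SE). Of 25 genes of the cascade above the kinases 17 were tested, and of 22 targets and other ERK phosphatases 13, with 0 called in each list. RNA levels say nothing of the phosphorylation of these kinases, which was not measured.

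Lists of regulators of Dusp1 transcription, of glucocorticoid-responsive genes and of stress genes held no call between cuff and sham. The background was 0.098% of probes called higher and 0% lower, so that lists of this length would hold about 0. RNA levels of the regulators say nothing of their activity, which was not measured. Of 18 genes for CREB, the glucocorticoid receptor and their partners 16 were tested and 0 called. Nr3c1, the glucocorticoid receptor, was at 0.12 ± 0.07 and Creb1 at -0.05 ± 0.07 (log2, SE). Of 20 glucocorticoid-responsive genes 19 were tested and 0 called, with a median log2 difference of 0.02. Fkbp5, a co-chaperone of the receptor, was at -0.14 ± 0.08, and Tsc22d3, which encodes GILZ, was at -0.03 ± 0.07. Sgk1, a kinase, was at 0.21 ± 0.10 and Per1, a clock gene, at 0.28 ± 0.11. Of 11 genes for heat shock and handling stress 10 were tested and 0 called, with a median of 0.08.

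Immediate early genes, which like Dusp1 are transcribed within minutes of a stimulus, were the list in which calls between cuff and sham were found. Of 48 genes 38 were tested, 9 were called higher in cuff over both times and 0 lower, set against 0.098% and 0% of all tested probes. The median log2 difference was 0.29, and 33 of the 38 lay above 0, against 50% of all tested probes. The list was set with earlier results of these arrays known, so these counts are a description and no independent support. The 9 were Egr2 at 1.54 ± 0.19 (SE, limma adjusted p = 0.00058), Csrnp1 at 0.74 ± 0.11, Egr4 at 0.74 ± 0.12, Fos at 1.13 ± 0.20, Junb at 0.94 ± 0.17, Fosl2 at 0.44 ± 0.08, Klf2 at 0.52 ± 0.10, Gadd45g at 0.47 ± 0.09 and Arc at 1.04 ± 0.21 (limma adjusted p = 0.047). Fos, Fosl2 and Junb encode subunits of the AP-1 factor, Egr2 and Egr4 are zinc-finger factors, and Arc is a protein of active synapses.

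At single times the list held 2 of the calls at 2 weeks, those of Egr2 and Csrnp1 (background 0.00891% higher, 0% lower), and 0 at 8 weeks (background 0% in either direction, limma). Other members of this list did not pass over both times. Fosb, another AP-1 subunit, was at 0.71 ± 0.15 (SE, limma adjusted p = 0.0732), Npas4, a neuron-specific factor induced by calcium entry, at 0.88 ± 0.28 (adjusted p = 0.805, limma) and Egr1 at 0.24 ± 0.06 (adjusted p = 0.306, limma). Nr4a1 and Btg2 had no tested probe. The calls rested on the settings. With neighbouring mouse numbers as a block 0 probes of the array passed, with a smallest limma adjusted p of 0.172. That fit has a mean for each pair and so fewer residual degrees of freedom. At 8 weeks only 4 of the 6 pairs held both a cuff and a sham mouse. With median scaling the 22 probes became 11. Without 1 array they were 12 for cuff replicate 6 or sham replicate 2 of the 2-week groups and for cuff replicate 4, cuff replicate 5 or sham replicate 4 of the 8-week groups, 13 without 2-week sham replicate 5, and 14 without 8-week cuff replicate 1.

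**Figure D2:**
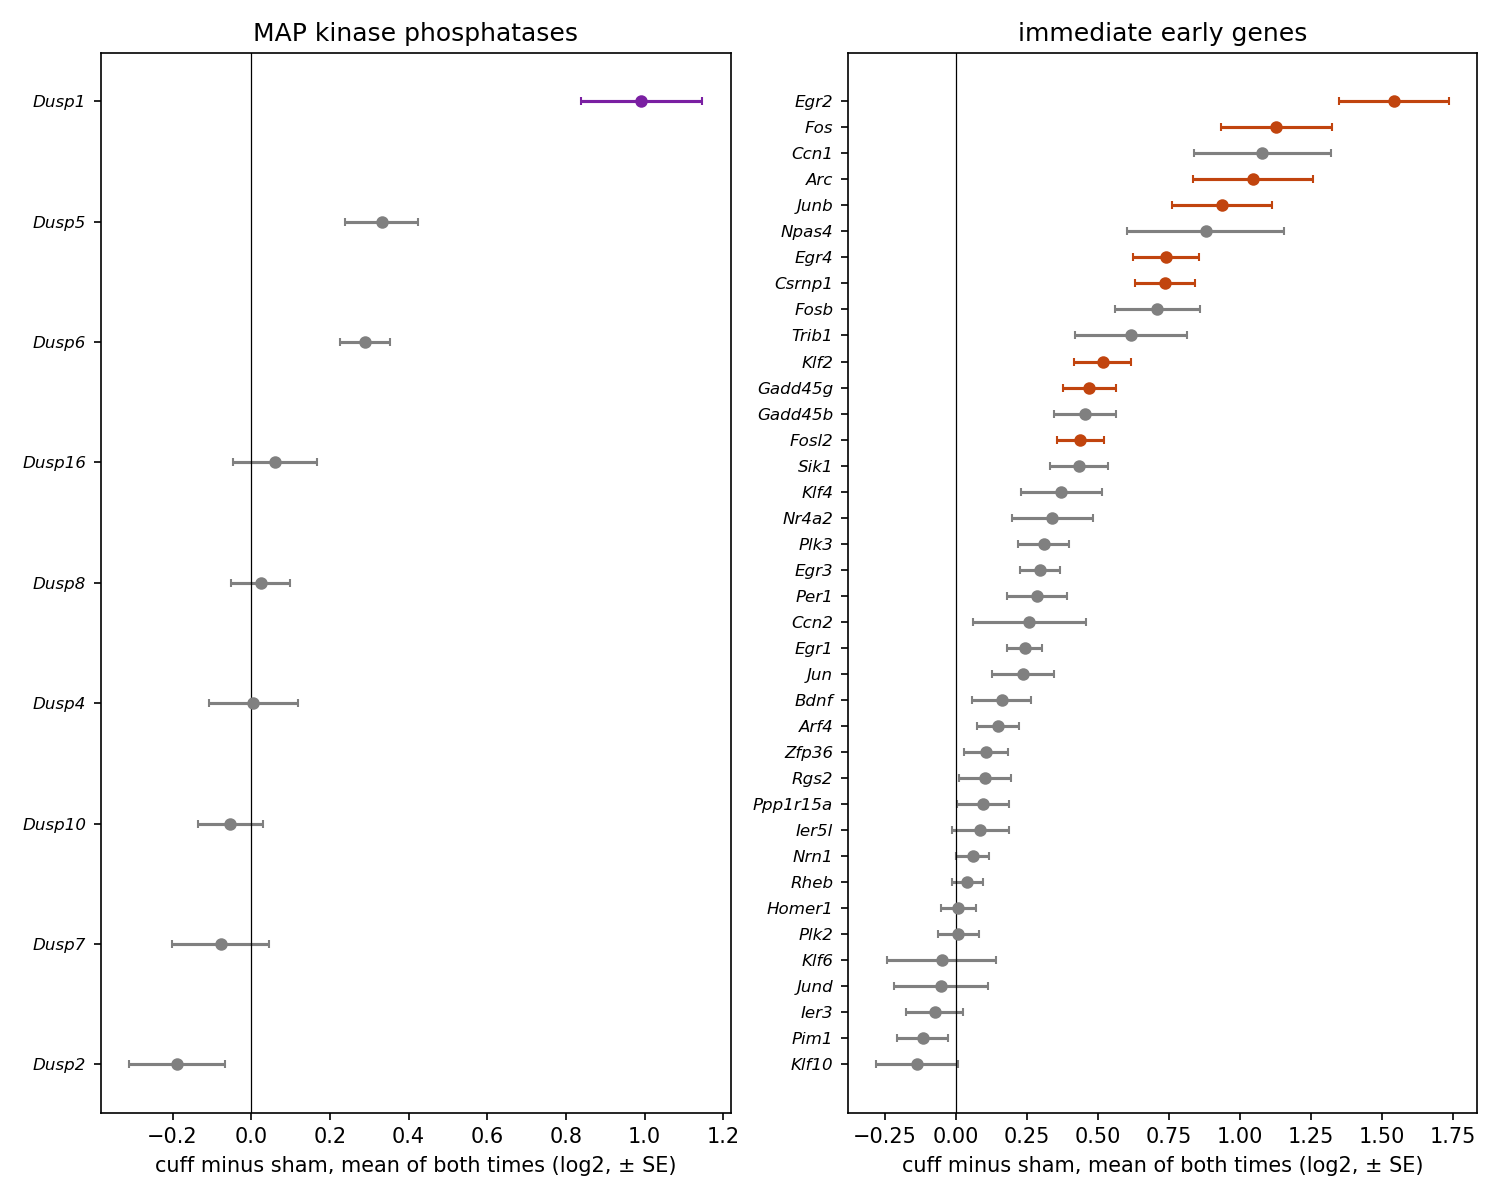
Log2 difference between cuff and sham averaged over 2 and 8 weeks, with its SE, for the tested MAP kinase phosphatases (left) and immediate early genes (right). Dusp1, shown in purple without a test, lies at 0.99, Dusp5 and Dusp6 lie at 0.33 and 0.29, Dusp4 at 0.00 and Dusp2 at -0.19, and orange points are the 9 immediate early genes with a limma adjusted p under 0.05.

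Mice of the same group differed in Dusp1, and these deviations from the group means were not used in choosing the probe. Each other tested probe was therefore fitted on them, with the 4 group means in the model. Of 22455 probes 9 rose with Dusp1 (0.0401%) and 1 fell (0.00445%) at a limma adjusted p under 0.05. An unadjusted limma p under 0.05 was found for 683, a smaller share than the 0.05 due if no probe varied with Dusp1. The probes that rose read Fos, Arc, Ccn1 (2 probes), Trib1, Npas4, Egr2, Csrnp1 and a transcript that the annotation used here does not name. The 1 that fell read Ap3b2.

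Fos rose by 1.10 ± 0.14 (SE) log2 units for 1 log2 unit of Dusp1 (limma adjusted p = 0.00131). Its lowest, median and highest signals were 10.75, 11.06 and 11.23 in cuff and 9.25, 9.92 and 10.66 in sham at 2 weeks. At 8 weeks they were 10.95, 11.41 and 11.68 in cuff and 8.99, 10.27 and 11.11 in sham. As for Dusp1, the groups were apart at 2 weeks and overlapped at 8 weeks, and the sham arrays were the more spread.

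Arc rose by 1.17 ± 0.16 (SE, limma adjusted p = 0.0019). Its signals at 2 weeks were 11.71, 11.81 and 11.97 in cuff against 9.75, 10.63 and 11.63 in sham. At 8 weeks they were 11.92, 12.11 and 12.43 in cuff against 9.86, 11.37 and 12.02 in sham. The cuff arrays lay in a narrow band at the top of the sham range or above it, at both times.

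Npas4 had the steepest slope, 1.39 ± 0.25 (SE, limma adjusted p = 0.0285). It ran from 9.70 to 10.14 in cuff and from 7.92 to 10.08 in sham at 2 weeks, and from 9.40 to 10.41 in cuff and from 7.33 to 9.98 in sham at 8 weeks. Most of its range was thus among sham mice, and its groups overlapped at both times. Egr2 had a slope of 0.96 ± 0.18 (SE, limma adjusted p = 0.0334) and ran from 9.78 to 10.44 in cuff and from 7.83 to 9.14 in sham at 2 weeks, without overlap. At 8 weeks it ran from 9.47 to 10.59 in cuff and from 7.73 to 9.71 in sham, with overlap. Csrnp1, a nuclear protein of the immediate early class, had a shallower slope of 0.52 ± 0.10 (SE, limma adjusted p = 0.0405).

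Ccn1, a secreted matrix-associated protein, had 3 tested probes, of which 2 rose with Dusp1 at the threshold. Their slopes were 0.97 ± 0.14 and 1.26 ± 0.20 (SE, limma adjusted p = 0.00319 and 0.0122). The remaining Ccn1 probe did not pass. Ccn1 was dim in sham: probe ILMN_2794645 was detected on 6 of 6 cuff and 2 of 6 sham arrays at 2 weeks, and on 6 of 6 cuff and 3 of 6 sham arrays at 8 weeks. Trib1, a pseudokinase, had a slope of 1.02 ± 0.17 (SE, limma adjusted p = 0.0139). Probe ILMN_1230397, without a listed gene, had a slope of 0.63 ± 0.11 (SE, limma adjusted p = 0.0222). It was among the 22 probes called higher in cuff, as were 5 of the 9 rising probes in all.

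Ap3b2, a neuronal subunit of the AP-3 adaptor of vesicle sorting, fell by 0.62 ± 0.10 for 1 log2 unit of Dusp1 (SE, limma adjusted p = 0.0139). Its signal was near background: the probe was detected on 3 of 12 cuff and 3 of 12 sham arrays and ran from 4.38 to 5.42 over all of them. It did not differ between cuff and sham by more than its error (-0.09 ± 0.12, SE, limma adjusted p = 1). With median scaling its slope had a limma adjusted p of 0.0763. The next by p were Mbtd1, a chromatin protein, at 0.37 ± 0.08 (adjusted p = 0.202, limma), and among falling probes ILMN_2433110, ILMN_2564336, Inca1 and Wdr38, with limma adjusted p of 0.197 or more.

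**Figure D3:**
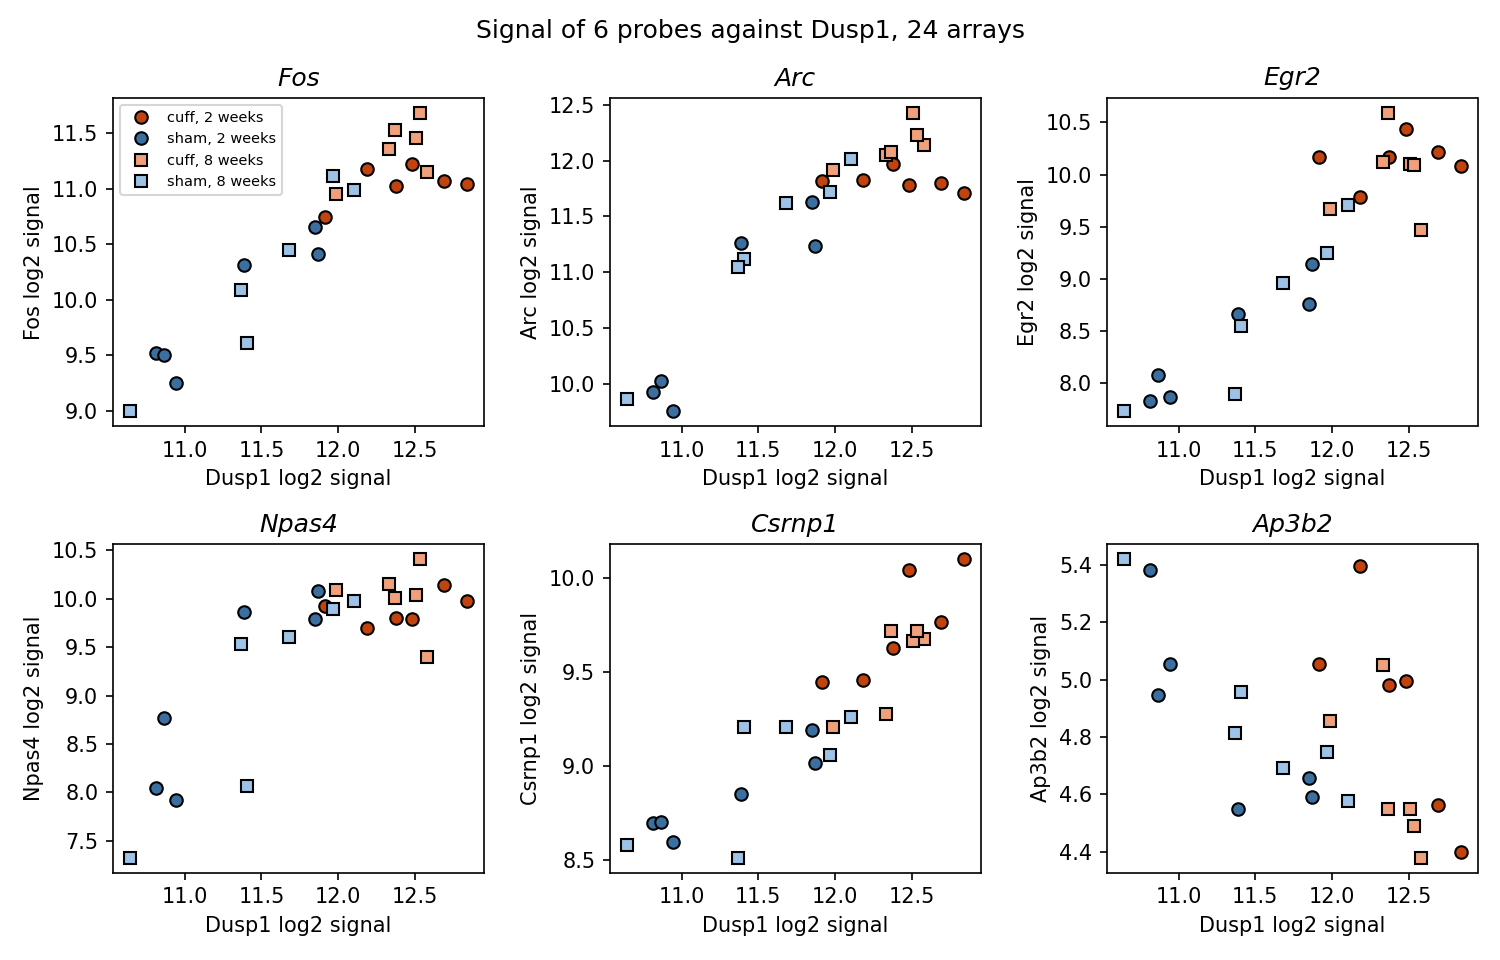
Log2 signal of 6 probes against the log2 signal of Dusp1 on the same array, 24 arrays in 4 groups. Fos, Arc, Egr2, Npas4 and Csrnp1 climb with Dusp1 among the sham arrays. The cuff arrays of Arc, Npas4 and Egr2 lie nearly flat, and the dim Ap3b2 runs the other way.

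The slopes were also fitted separately in cuff mice and in sham mice, where Dusp1 varied more. Among cuff arrays alone the slope was 0.40 ± 0.21 for Fos, 0.10 ± 0.17 for Arc, 0.14 ± 0.25 for Trib1, 0.04 ± 0.27 for Npas4 and 0.15 ± 0.32 for Egr2, against 1.32 ± 0.15, 1.51 ± 0.14, 1.29 ± 0.17, 1.81 ± 0.27 and 1.22 ± 0.16 among sham arrays alone (SE, n = 12 arrays each). Csrnp1 had slopes of 0.76 ± 0.18 in cuff and 0.45 ± 0.12 in sham, and Ccn1 (ILMN_2710253) of 0.89 ± 0.30 in cuff and 1.00 ± 0.15 in sham.

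Tested directly, the cuff slope minus the sham slope passed the threshold for 1 of these 10 probes, that of Arc, at -1.41 ± 0.25 (SE, limma adjusted p = 0.025). The corresponding limma adjusted p was 0.0804 for Npas4, 0.0968 for Trib1, 0.111 for Fos, 0.141 for Egr2 and 0.515 or more for the others. Over the array 39 of 22455 probes passed this test (0.174%). An unadjusted limma p under 0.05 was found for 3770, a larger share than the 0.05 due with no difference. Low p-values in this test were thus not particular to Arc. The Arc call was lost without 8-week sham replicate 3 (limma adjusted p = 0.0792) and without 2-week cuff replicate 1 (0.059), 3 (0.382) or 6 (0.123), with differences between -1.55 and -1.28 over all omissions. Slopes at 8 weeks minus those at 2 weeks passed for 0 probes (0%, limma, smallest adjusted p = 0.619). For 1780 the unadjusted limma p was below 0.05, also a larger share than 0.05.

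**Figure D4:**
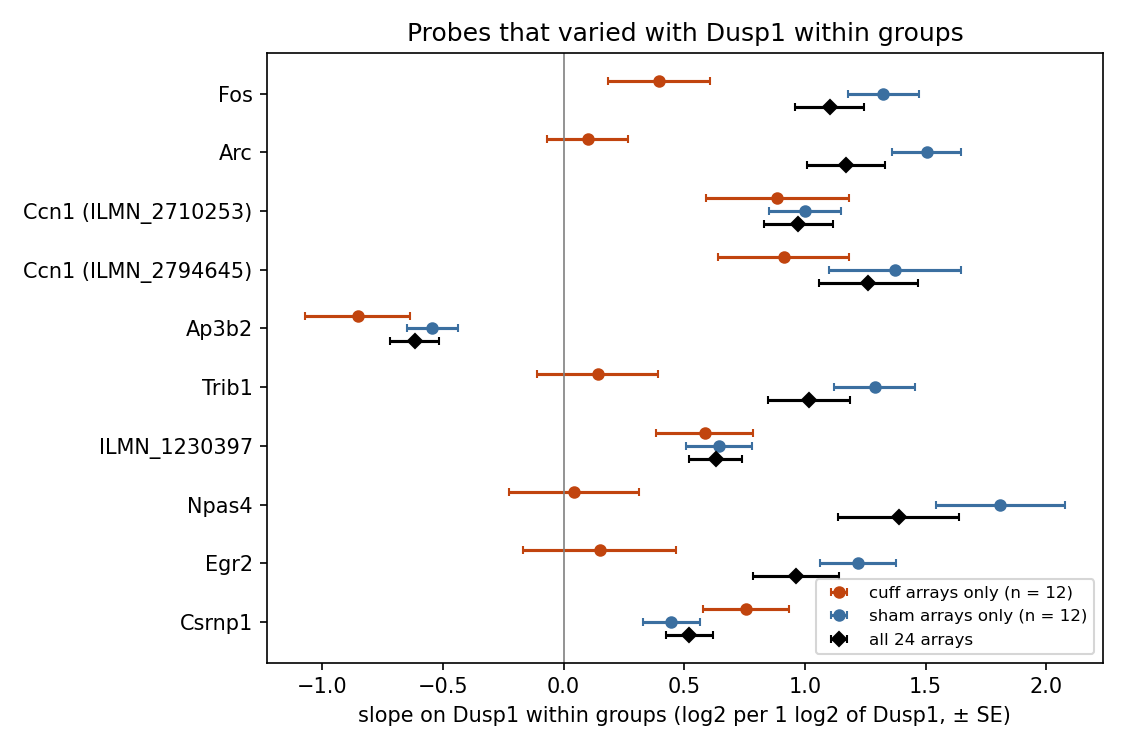
Slope of each called probe on Dusp1 within groups (log2 units per log2 unit of Dusp1, with SE) among cuff arrays, among sham arrays and over all 24. Arc has a slope of 0.10 in cuff and 1.51 in sham, whereas both Ccn1 probes, ILMN_1230397 and Ap3b2 have error bars that overlap between cuff and sham.

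All 9 rising probes kept a slope above 0 under each of the other settings in which they were measured, but the calls depended on which mice were in the fit. Their number with the falling probe, 10 over all arrays, was 2 without the 2 arrays farthest from the median of Dusp1 (8-week sham replicate 3 and 2-week sham replicate 1), and both of these were Ccn1 probes. Ccn1 was dim in sham (above), and its probe ILMN_2794645 met the detection filter only through its cuff arrays. The number of calls was 6, 6, 4 and 5 without 2-week sham replicate 1, 2, 3 or 6, and 4 and 3 without 8-week sham replicate 2 or 3. Among sham arrays alone 6 of the 10 passed, and among cuff arrays alone 3 probes passed, none of them among the 10. Within groups, the Pearson r of Dusp1 itself over 24 arrays was 0.17 with the log2 median raw signal, 0.23 with the number of detected probes and 0.25 with the mouse number (Spearman's rho 0.18, 0.16 and 0.31).

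By likeness over all 24 arrays, which includes the cuff and sham difference used in choosing the probe, the 10 nearest probes by Pearson r were those of Fos (0.931), Egr2 (0.919), Csrnp1 (0.916), Arc (0.904), ILMN_1230397 (0.899), ILMN_2484278 (0.893), Dusp6 (0.881), Sntb2 (0.876), Nfkbid (0.874) and Ccn1 (0.852). These values describe arrays that share groups and a normalization, and 6 of the 10 probes were also among the 10 that rose with the smallest p within groups. The 95th percentile of r over all tested probes was 0.338. Sntb2, a syntrophin, and Nfkbid, an inhibitor of the NF-kappaB family, were higher in cuff over both times by 0.32 ± 0.06 and 0.33 ± 0.05 (log2, SE, limma adjusted p = 0.047 and 0.00745). Such a difference also enters the r by which they were named, so it is no separate support. Within groups neither they nor Dusp6 passed (limma adjusted p of 0.947 or more).

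As a list, the immediate early genes had 7 of 38 tested genes that rose with Dusp1 within groups, against 0.0401% of probes. The median slope was 0.26, against 0.00 over all tested probes, and 29 of 38 slopes lay above 0, against 50.3% over all tested probes. The list was set with earlier results of these arrays known, so these counts are no independent support either. In the lists of phosphatases, MAP kinases, cascade, targets, glucocorticoid response, regulators and heat shock, 0 genes rose or fell with Dusp1 (background 0.0401% and 0.00445%). Lists of this length would hold about 0 calls at these shares. Of the 8 tested MAP kinase phosphatases 5 had a slope above 0. The largest were 0.37 ± 0.12 for Dusp16, 0.35 ± 0.10 for Dusp5 and 0.26 ± 0.07 for Dusp6 (SE), none past the threshold.

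Of 13 tested neuronal markers 12 were detected on all 24 arrays, with a mean log2 signal from 11.76 to 12.01, and 0 markers of any list were called between cuff and sham over both times (background 0.098% higher, 0% lower) or with Dusp1 (0.0401% rising, 0.00445% falling). Lists of 4 to 13 tested genes would hold about 0 calls at these shares. Within groups the Pearson r of a list's mean log2 level with Dusp1 over 24 arrays was 0.03 for neurons, 0.11 for astrocytes, -0.34 for microglia, 0.28 for oligodendrocytes, 0.19 for endothelial cells and pericytes, and 0.08 for blood and choroid plexus. The mean level of the oligodendrocyte list ran from 10.40 to 11.70 and that of the blood and choroid plexus list from 7.95 to 9.52. The oligodendrocyte list had 9 of 9 slopes on Dusp1 above 0 (median 0.31), and 0 of 8 microglial slopes lay above 0 (median -0.11), against 50.3% over all tested probes. The oligodendrocyte list stood at a median log2 difference between cuff and sham of 0.30 at 8 weeks and of -0.32 at 2 weeks. Its part in the levels of Dusp1 was not tested.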

How the data were processed

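Expression was profiled with Illumina bead arrays from biotin-labelled total RNA, per the labels, with 1 array for each of 24 samples of mouse anterior cingulate cortex. Per the file headers, the deposited values are, for each of 45281 probes and each array, the signal intensity with its detection p-value. The submitters' processing notes name GenomeStudio 2011.1, with settings that the sources used here do not give. The authors' normalized table holds linear intensity, which matched quantile normalization of the deposited signal without background correction (Pearson r of 1 on the log2 scale).

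The intensity was corrected for background and quantile-normalized by neqc (offset of 16, log2) in limma 3.58.1, R 4.3.3. The 22456 probes (49.6%) detected at p under 0.05 on 6 or more of 24 arrays were tested. lmFit and eBayes were fitted with 4 group means (20 residual and 5.05 prior degrees of freedom). Adjusted p-values are limma's, two-sided, with Benjamini-Hochberg adjustment over all tested probes and a threshold of 0.05. For the within-group fit, each other probe was fitted on the group-centred log2 level of Dusp1 (19 residual degrees of freedom). The fits were tested on simulated data. Precision is limited by the 6 arrays per group.

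Groups came from the source labels, and replicate numbers follow sample order. No column was left unmatched (0 columns). Genes were named from GEO's platform annotation: 34885 probes had 1 symbol, 18 several and 10378 none. A gene with several tested probes is given by the brightest.

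The probe, the gene lists and the tests were chosen with earlier results of these data known. Named were Dusp1, the 10 rising and 5 falling probes with the smallest p in the within-group fit, the 10 probes of highest r over 24 arrays, the MAP kinase phosphatases, a fixed set of kinases, regulators and immediate early genes, and called members of lists. Alternatives changed the background correction and normalization, the authors' values, the detection filter, array weights, the median raw signal as a covariate, neighbouring mouse numbers as a block, and the arrays used. The fits on cuff, sham, 2-week or 8-week arrays alone, without the 2 farthest arrays, and of slope differences were chosen after seeing the data. Promoter windows came from RefSeq and were trimmed to the 250 bases before the start. Arc and Trib1 are not in that table.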

Additional observations from a re-analysis of the deposited data

Results flagged for a closer look

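Probe ILMN_1230397, which rose with Dusp1 and has no listed gene, had 1 array apart from its group: 2-week cuff replicate 3 stood at a log2 signal of 7.08, with the other 5 arrays of the group between 7.51 and 7.73. The same array had the lowest Dusp1 level of its group, 11.91. Of 48 such checks of a group 1 was positive, and about 2.4 would be so by chance.

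The slope of Arc on Dusp1 differed between cuff and sham, by -1.41 (cuff minus sham, limma adjusted p = 0.025), with slopes of 0.10 in cuff and 1.51 in sham. It passed in 20 of 24 fits that left out 1 array, and the number of probes that passed over the whole array ran from 2 to 534 in those fits.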

How the results depend on the processing

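Under the 32 alternatives the Dusp1 difference between cuff and sham was 1.03 to 1.24 at 2 weeks, 0.68 to 0.97 at 8 weeks and 0.90 to 1.05 over both. The probe was chosen by this difference, so its unchanged direction is no separate support. The difference between 8 and 2 weeks over cuff and sham stayed between 0.04 and 0.19, with limma adjusted p of 0.413 or more, and that in sham between 0.13 and 0.42. In cuff, at -0.03, it took the other sign with median scaling (0.020), and ran from -0.13 to 0.055 when 1 array was left out (0.026 without 2-week cuff replicate 4, 0.055 without replicate 6, 0.049 without 8-week cuff replicate 2). The 22 probes called between cuff and sham became 11 with median scaling, 14 without the detection filter and 0 with the mouse-number block, and 12 to 26 without 1 array. The 1805 probes called between 8 and 2 weeks became 349 with median scaling (298 higher, 51 lower), 3402 with array weights, and 884 (without 2-week cuff replicate 6) to 3091 (without 2-week cuff replicate 3) without 1 array. The 10 probes called with Dusp1 became 28 with median scaling, 4 with the block (Fos, Arc, Ccn1 and Trib1), 0 on 2-week arrays, 2 on 8-week arrays (Fos and Arc), 3 on cuff arrays, 6 on sham arrays and 2 without the 2 farthest arrays, and 3 to 10 without 1 array. The causes were not tested. Fewer arrays in a fit, or a mean for each block, also leave fewer degrees of freedom. For the genes named other than Dusp1, 259 of the settings ended a call, 2 made one and 0 turned a direction. Egr2, Csrnp1, Egr4 and Fos kept their cuff call in 31 of 32 alternatives, against 10 for Arc and Gadd45g, 16 for Klf2, 21 for Fosl2, 23 for Junb, 9 for Sntb2 and 30 for Nfkbid. The labels give no replicate numbers that the groups share, so the block of neighbouring mouse numbers, which no label calls a batch, was the one pairing tried. Dim probes such as Ap3b2 and Ccn1 lie near background, where the offset makes log2 differences smaller than the change in signal.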
